A study of Mus musculus with 10 samples.

Results

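The genes described here encode the signaling subunits of the CD3 complex, the CD4 and CD8 co-receptors and 3 surface receptors that sit beside them on T cells, CD5, CD6 and CD2. They were taken by symbol, as the rows Cd3d, Cd3e, Cd3g, Cd247, Cd4, Cd8a, Cd8b1, Cd5, Cd6 and Cd2 of a table of normalized counts, and are 10 of its 48825 genes. All 10 passed the filter on low values, with at least 1051 normalized counts in every library.

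The libraries are bulk RNA sequencing of cells whose sample titles call them T cells, taken from melanomas of mice that carry the alleles BrafCA and Tyr::CreER. In this strain, which all groups share, the tyrosinase promoter drives a tamoxifen-inducible Cre in melanocytes, where it switches on a mutant Braf allele. The genotype field of the labels reads wild type in all groups. Mice fed chow with 600 mg/kg of the CSF1R inhibitor PLX6134 (CSF1Ri) gave 2 libraries, numbered 1 and 6; the title of the first has no number. Mice injected intraperitoneally with 10 mg/kg of the agonistic CD40 antibody FGK4.5 every 3 days (CD40) gave 3 libraries, numbered 1 to 3. Mice given both (CSF1Ri+CD40) gave 2, numbered 1 and 3, and control mice gave 3, numbered 1 to 3. Normal chow was given without the inhibitor, and PBS was the vehicle for the antibody. Treatment began 30 days after tumor induction, in age-matched mice whose exact age is not given in the sources used here. Each library pooled at least 3 tumors. Since the labels do not tie libraries to animals, p-values measure the spread between these libraries only.

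The T cell receptor binds its antigen but has almost no cytoplasmic tail, so the signal is carried by the CD3 gamma, delta and epsilon chains and the zeta chain, whose tails are phosphorylated by the kinase Lck. CD4 and CD8 bind MHC class II and class I on the presenting cell and bring Lck to the receptor, and they divide mature alpha beta T cells into helper and cytotoxic lineages. CD5 and CD6 are scavenger receptor family proteins that tune the signal, and CD2 is an adhesion receptor that binds CD48 in the mouse. The treatments act on receptors of myeloid and other antigen-presenting cells, so the comparisons ask how these T cell transcripts differed when cells around the T cells were targeted.

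Genes for 3 of the CD3 chains lie together on chromosome 9 (GRCm38, positions from GENCODE vM21). Cd3g (ENSMUSG00000002033, chr9:44969572-44980431, minus strand) and Cd3d (ENSMUSG00000032094, chr9:44981786-44987339, plus strand) point away from each other across a gap of 1354 bases. Cd3e (ENSMUSG00000032093, chr9:44998740-45009627, minus strand) lies 11400 bases beyond Cd3d. Their promoter windows are shown because the transcripts of the first pair moved together over the libraries while that of Cd3e did not follow them. Each runs from 250 bases before to 50 bases after the RefSeq start on GRCm38.p6 and is read 5′ to 3′ on the strand of the gene. Capitals mark CANNTG, the E-box core that E proteins such as Tcf3 and Tcf12 bind; the pattern reads alike on both strands and no other motif is marked.
Cd3d, chr9:44981536-44981835, plus strand: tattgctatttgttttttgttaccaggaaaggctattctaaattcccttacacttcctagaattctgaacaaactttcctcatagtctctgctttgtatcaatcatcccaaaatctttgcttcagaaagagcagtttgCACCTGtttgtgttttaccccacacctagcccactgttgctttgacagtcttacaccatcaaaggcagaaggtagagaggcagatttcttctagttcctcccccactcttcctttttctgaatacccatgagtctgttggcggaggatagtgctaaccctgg
Cd3g, chr9:44980382-44980681, minus strand: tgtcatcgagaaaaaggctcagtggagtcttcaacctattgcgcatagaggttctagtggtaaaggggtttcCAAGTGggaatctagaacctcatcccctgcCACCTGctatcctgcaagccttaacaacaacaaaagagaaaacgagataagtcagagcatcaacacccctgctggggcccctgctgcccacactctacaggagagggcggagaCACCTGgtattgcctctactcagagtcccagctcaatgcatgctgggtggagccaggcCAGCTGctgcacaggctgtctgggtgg
Cd3e, chr9:45009562-45009861, minus strand: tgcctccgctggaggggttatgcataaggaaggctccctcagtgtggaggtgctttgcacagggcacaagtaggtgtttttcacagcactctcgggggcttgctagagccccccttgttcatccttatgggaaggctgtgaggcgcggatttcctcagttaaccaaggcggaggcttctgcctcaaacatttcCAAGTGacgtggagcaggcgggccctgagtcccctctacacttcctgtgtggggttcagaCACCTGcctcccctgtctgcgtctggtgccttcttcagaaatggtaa
The Cd3d window held 1 match, the Cd3g window 4 and the Cd3e window 2, while 72.3% of 32544 RefSeq promoter windows of the same length held at least 1, with a median of 1. G and C made up 42.3% of the Cd3d window, 54.0% of the Cd3g window and 56.7% of the Cd3e window, and the median was 53% over all windows. RefSeq windows were matched for 6 of the 10 genes, these 3 and Cd247, Cd8a and Cd5, which are not shown. A match is a string of letters, not a site shown to be bound.

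The libraries held 11538244 to 14024851 normalized counts in all, and the spacing of the values puts the reads in genes at about 10300000 to 15000000 in the 7 libraries where it could be read. The label for tissue names tumor-associated macrophages, but T cell markers (6 genes, including Cd3e, Trac and Bcl11b) summed to 66524 to 111956 per library, against 2205 to 5894 for 12 macrophage and monocyte genes. The macrophage list includes Ly6c2, which T cells also express and which gave 1557 to 3902 of that sum. Sums were 640 to 1331 for 5 NK cell genes, 272 to 790 for 5 B cell genes and 436 to 17372 for 4 mast cell genes. The thymocyte genes Rag1, Rag2 and Ptcra were at 0 in every library. On the first principal component CD40 2 (-40.7) and CD40 3 (64.0) lay at opposite ends, with CD40 1 (-33.9) near CD40 2. On the second, CD40 2 and CD40 3 lay highest, at 61.9 and 32.3. Y-linked transcripts were summed at 1569 in CD40 2, 3072 in CD40 3 and 2438 in Control 1, against 0 or 1 in the other 7 libraries. CD40 3 also had the highest Malat1, a nuclear RNA, at 95260 normalized counts against 14056 to 59286 elsewhere.

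All 10 genes were abundant. Per kilobase of the longest coding transcript, the mean normalized count over the libraries was 23208 for Cd3g, 15451 for Cd2, 12827 for Cd3e and 7103 for Cd3d. Cd8b1 followed at 2823 and Cd247 at 1958, and Cd5 at 1422, Cd6 at 1336, Cd4 at 989 and Cd8a at 910 had the lowest levels per kilobase. The last 4 had overlapping ranges, from 336 for Cd8a in its lowest library to 2157 for Cd5 in its highest. The order depends on the length used, and by the union of all annotated exons Cd2 stood first and Cd3g second.

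**Figure D1:**
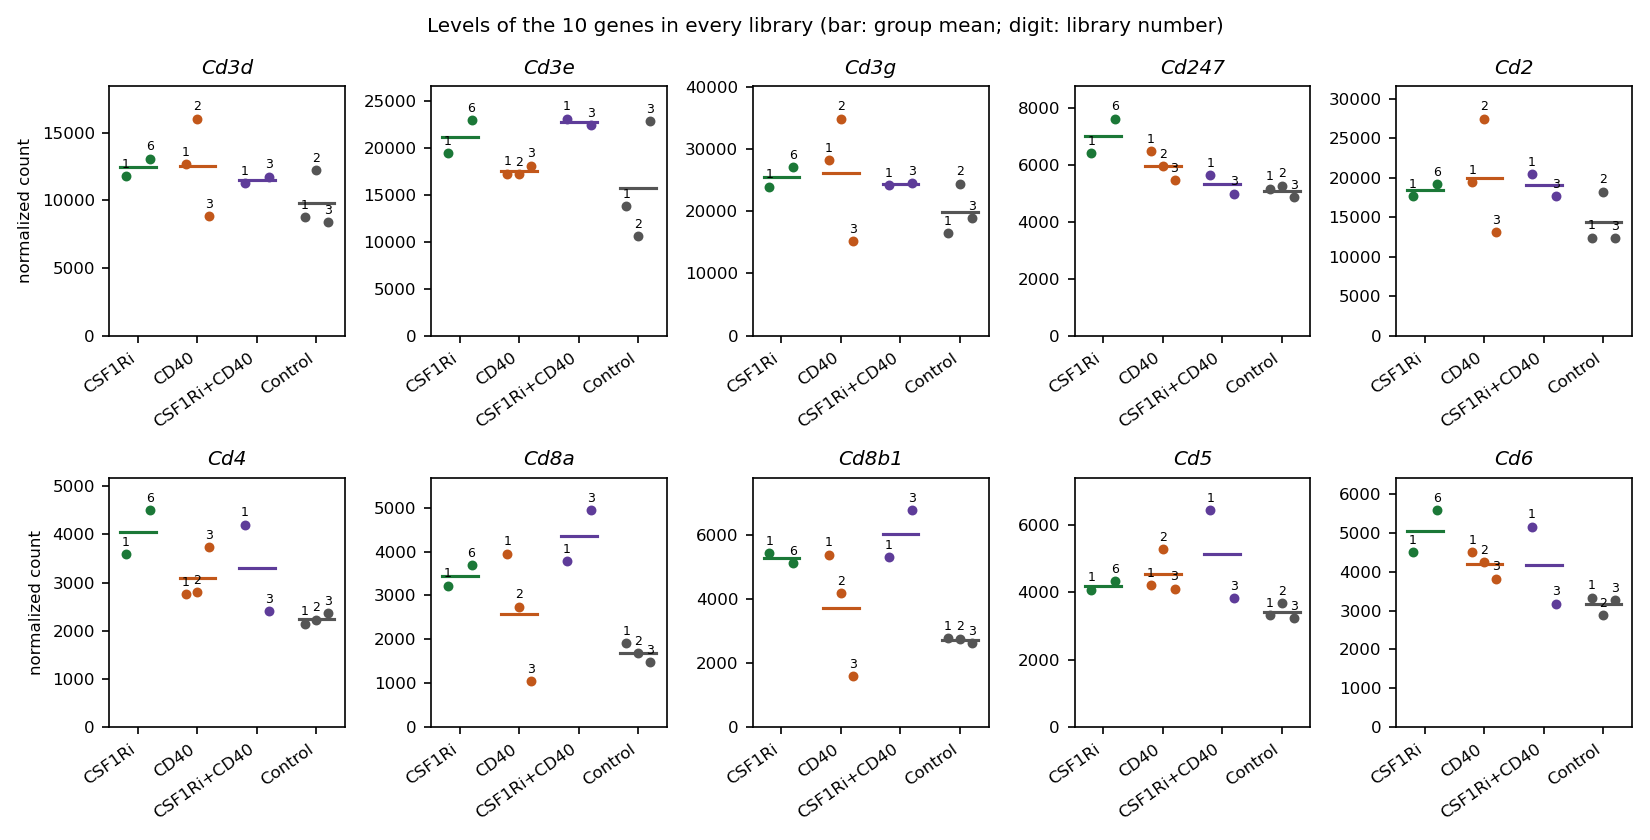
Normalized counts (vertical axes, from 0) of the 10 genes in each of the 10 libraries, by group, with 1 point per library, its number above it and the group mean as a bar. Cd4 and Cd5 lay higher in all 7 treated libraries than in any control library, and the CD40 libraries of Cd8a and Cd8b1 ran from 1051 to 3949 and from 1577 to 5380.

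Cd3d, the delta chain, had 11776 and 13099 normalized counts in CSF1Ri libraries, 12685, 16055 and 8813 in CD40 libraries, and 11276 and 11757 in CSF1Ri+CD40 libraries, against 8765, 12256 and 8379 in control libraries. The groups overlapped, since Control 2 lay above the lowest library of each treated group. Cd3g, the gamma chain, had 23940 and 27023 in CSF1Ri libraries, 28133, 34854 and 15147 in CD40 libraries, and 24169 and 24479 in CSF1Ri+CD40 libraries, against 16458, 24418 and 18802 in control libraries. It was highest in CD40 2 and lowest in CD40 3, so a single group held both ends of its range. Cd3e, the epsilon chain that pairs with either of the others, had 19445 and 22898 in CSF1Ri libraries, 17238, 17149 and 18088 in CD40 libraries, and 23096 and 22407 in CSF1Ri+CD40 libraries, against 13804, 10586 and 22822 in control libraries. Its 3 control libraries covered most of its whole range, with the lowest value in Control 2 and a value near the top in Control 3.

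Relative to Cd3e, Cd3g was lowest in Control 3, at -0.28 on the log2 scale, and highest in Control 2, at 1.21. Cd3d relative to Cd3e likewise ran from -1.45 in Control 3 to 0.21 in Control 2, a 3.15-fold span. Cd3d relative to Cd3g stayed between -1.17 and -0.78, a 1.31-fold span. The delta and gamma chain transcripts thus kept an almost fixed ratio from library to library, and the epsilon chain transcript kept it with neither.

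Over the 10 libraries, Pearson's r of log2 levels was 0.96 between Cd3d and Cd3g (Spearman's rho 0.88) and 0.96 between Cd3d and Cd2 (rho 0.81). Between Cd3e and its partners it was -0.05 for Cd3d (rho -0.18) and 0.08 for Cd3g (rho -0.03). Without the 2 libraries farthest from the median of Cd3d, r was 0.98 for Cd3d with Cd3g and 0.21 for Cd3d with Cd3e. Without CD40 2 and CD40 3 the same pairs gave 0.95 and -0.01, and departures from the group means gave 0.95 and -0.48. These are descriptions over 55 pairs among the 10 genes and Trac, the constant gene of the receptor alpha chain, and the points share their normalization. With Trac, r was 0.98 for Cd2 (rho 0.79), 0.95 for Cd3d (rho 0.60) and 0.93 for Cd3g (rho 0.67). Without the 2 farthest libraries it was 0.95 for Cd2 and 0.89 for both Cd3d and Cd3g. The receptor gene itself thus went with Cd3d, Cd3g and Cd2, less closely by rank.

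**Figure D2:**
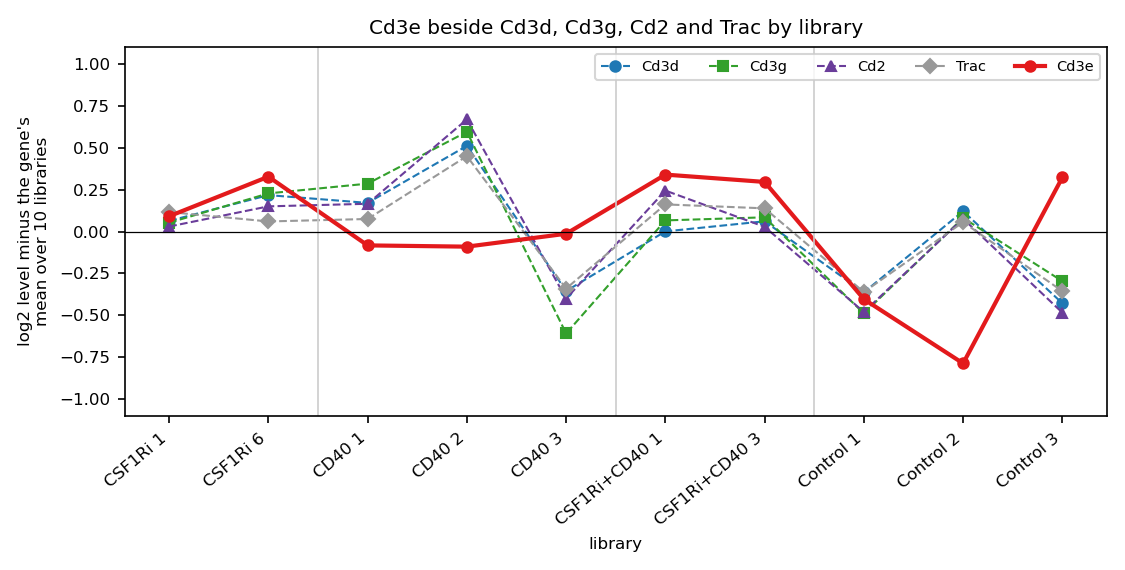
Log2 level of Cd3d, Cd3g, Cd2, Trac and Cd3e in each library minus the mean of that gene over the 10 libraries (vertical axis), with libraries along the horizontal axis and lines only joining the points of 1 gene. Cd3d, Cd3g, Cd2 and Trac run close together, high in CD40 2 and low in CD40 3, while Cd3e is lowest in Control 2 and high in Control 3.

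The summed ribosomal protein transcripts (76 genes) moved with the same genes. They ran from 950598 in Control 1 to 1401240 in CD40 2, and r over the 10 libraries was 0.97 with Cd3d, 0.96 with Cd3g and 0.93 with Cd2, against -0.07 with Cd3e. For Malat1, r was -0.60 with Cd3d, -0.63 with Cd3g and -0.59 with Cd2, against 0.29 with Cd3e. The part of RNA quality or of the makeup of the libraries in the levels of Cd3d, Cd3g and Cd2 was not tested. Outside the 10 genes, those whose levels followed Cd3g closely included Akr1a1 (r = 0.99), RP24-235B15.4 (0.99), Sumo2 (0.98) and Hcst (0.98); Cd3g was added to this search after its values were seen. For Cd3e the 5 closest among 8834 genes of mean at least 100 were Ucp2 (0.94), Actg1 (0.94), Supt3 (0.93), Slc25a45 (0.92) and Lig1 (0.91). Ucp2, a mitochondrial carrier, had 9903 and 9245 normalized counts in Control 1 and Control 2 and 14075 or more in every other library, Control 3 included.

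Cd3e shares 135 exon bases with an annotated antisense gene that is not among the listed genes. Library preparation did not keep the strand, so reads of a gene and of its antisense partner cannot be told apart.

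**Figure D3:**
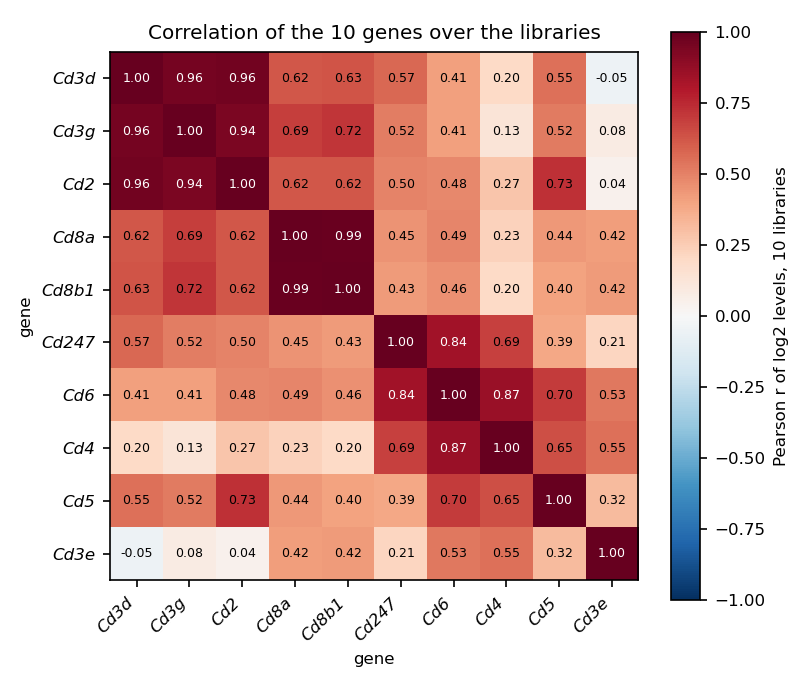
Pearson's r of log2 levels over the 10 libraries for each pair of the 10 genes, with rows and columns as genes and colour and number giving r. Cd3d, Cd3g and Cd2 form a block at 0.94 to 0.96, Cd8a and Cd8b1 stand at 0.99, and the row of Cd3e reaches at most 0.55.

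Cd247, on chromosome 1 (chr1:165788681-165877277, plus strand), encodes the zeta chain, which carries most of the phosphorylation motifs of the complex. It had 6404 and 7629 normalized counts in CSF1Ri libraries, 6492, 5966 and 5469 in CD40 libraries, and 5647 and 4989 in CSF1Ri+CD40 libraries, against 5169, 5265 and 4859 in control libraries. Every CSF1Ri and every CD40 library lay above every control library, and the CSF1Ri+CD40 libraries straddled the controls. Its spread within groups was narrow, with a residual SD of 0.12 on the log2 scale, at percentile 1.63 among the 2275 genes of mean at least 1000, whose median was 0.298. Of its exon bases, 56.4% lie opposite exons of Pou2f1, which had 136 to 384 normalized counts, and reads from that stretch cannot be told apart.

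Over control, the log2 fold change of Cd3d was 0.36 ± 0.26 in CSF1Ri libraries (SE; 95% interval -0.20 to 0.93), 0.33 ± 0.23 in CD40 libraries (-0.17 to 0.84) and 0.25 ± 0.26 in CSF1Ri+CD40 libraries (-0.31 to 0.82), in a limma fit of log2 values over all genes. For Cd3g it was 0.37 ± 0.31 (-0.30 to 1.05) in CSF1Ri libraries, 0.32 ± 0.28 (-0.28 to 0.93) in CD40 libraries and 0.31 ± 0.31 (-0.36 to 0.98) in CSF1Ri+CD40 libraries. For Cd3e it was 0.50 ± 0.27 (-0.09 to 1.09) in CSF1Ri libraries, 0.23 ± 0.24 (-0.30 to 0.76) in CD40 libraries and 0.61 ± 0.27 (0.01 to 1.20) in CSF1Ri+CD40 libraries. Control 2 and Control 3 decided much of the values of Cd3e, which for CD40 was -0.022 without Control 2 and 0.53 without Control 3. For Cd247 it was 0.46 ± 0.18 (0.06 to 0.86) in CSF1Ri libraries, 0.23 ± 0.16 (-0.13 to 0.58) in CD40 libraries and 0.06 ± 0.18 (-0.34 to 0.46) in CSF1Ri+CD40 libraries. No gene of the CD3 complex passed a Benjamini-Hochberg adjusted p of 0.05 over 15716 genes, and the smallest adjusted limma p among them was 0.85.

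Cd4 and the pair Cd8a and Cd8b1 lie on chromosome 6. Cd4 is at chr6:124864692-124888221 (minus strand), and Cd8b1 (chr6:71322788-71337494) and Cd8a (chr6:71373427-71379173) follow each other on the plus strand with 35932 bases between them. Cd4 had 3591 and 4504 normalized counts in CSF1Ri libraries, 2764, 2794 and 3738 in CD40 libraries, and 4203 and 2403 in CSF1Ri+CD40 libraries, against 2146, 2226 and 2364 in control libraries. All 7 treated libraries lay above the 3 controls, which lay close together, although CSF1Ri+CD40 3 was above Control 3 by little. In bulk RNA, more or fewer cells of a type and more or less RNA per cell cannot be told apart.

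Cd8a, the alpha chain found in all CD8 dimers, had 3223 and 3685 normalized counts in CSF1Ri libraries, 3949, 2744 and 1051 in CD40 libraries, and 3785 and 4947 in CSF1Ri+CD40 libraries, against 1911, 1691 and 1475 in control libraries. The 4 libraries with the inhibitor lay above the controls, as did CD40 1 and CD40 2, and CD40 3 lay below every other library. Cd8b1, the beta chain that marks conventional cytotoxic T cells, had 5421 and 5102 in CSF1Ri libraries, 5380, 4172 and 1577 in CD40 libraries, and 5296 and 6766 in CSF1Ri+CD40 libraries, against 2780, 2754 and 2613 in control libraries. As for Cd8a, the 4 libraries with the inhibitor, CD40 1 and CD40 2 lay above the controls and CD40 3 lay lowest. The 2 chains gave r = 0.99 over the 10 libraries (rho 0.93; 0.98 without the 2 farthest), and log2 of Cd8b1 over Cd8a stayed between 0.45 and 0.82. Their spread within groups was wide, with residual SDs of 0.59 for Cd8a and 0.55 for Cd8b1, at percentiles 94.6 and 93.0 among the same 2275 genes.

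Over control, the log2 fold change of Cd8a was 1.03 ± 0.43 in CSF1Ri libraries (0.09 to 1.98), 0.42 ± 0.39 in CD40 libraries (-0.43 to 1.26) and 1.36 ± 0.43 in CSF1Ri+CD40 libraries (0.42 to 2.31). None passed the threshold, and the adjusted limma p was 1, 0.889 and 0.776. Averaged over both antibody levels, the inhibitor gave 0.99 ± 0.30 (0.32 to 1.66), with an adjusted limma p of 0.994. CD40 3 decided much of the CD40 value, which was 0.97 without that library and 0.01 without CD40 1.

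For Cd8b1 the log2 fold change over control was 0.95 ± 0.40 in CSF1Ri libraries, 0.27 ± 0.36 in CD40 libraries and 1.14 ± 0.40 in CSF1Ri+CD40 libraries, and averaged over both antibody levels the inhibitor gave 0.91 ± 0.28 with an adjusted limma p of 0.994. The CD40 value turned to -0.082 without CD40 1 and was 0.80 without CD40 3. For Cd4 it was 0.84 ± 0.26 in CSF1Ri libraries (0.27 to 1.41), 0.45 ± 0.23 in CD40 libraries (-0.06 to 0.96) and 0.50 ± 0.26 in CSF1Ri+CD40 libraries (-0.07 to 1.08), and the adjusted limma p was 1, 0.788 and 0.925. For CSF1Ri+CD40 the value was 0.91 without CSF1Ri+CD40 3 and 0.10 without CSF1Ri+CD40 1. No co-receptor gene passed the threshold in any comparison.

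The log2 ratio of Cd8a to Cd4 was -0.16 and -0.29 in CSF1Ri libraries, 0.51, -0.03 and -1.83 in CD40 libraries, and -0.15 and 1.04 in CSF1Ri+CD40 libraries, against -0.17, -0.40 and -0.68 in control libraries. From CD40 3 to CSF1Ri+CD40 3 the ratio spanned 7.32-fold. The groups given antibody spread widely, at an SD of 1.23 for CD40 and 0.84 for CSF1Ri+CD40, against 0.09 for CSF1Ri and 0.26 for control. Both CSF1Ri+CD40 libraries lay above all 3 controls, although CSF1Ri+CD40 1 was next to Control 1.

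In exact permutation tests over libraries (two-sided), the ratio of CSF1Ri+CD40 differed from control by 0.86 (p = 0.1, the smallest that 10 arrangements allow). This difference was 0.26 without CSF1Ri+CD40 3 and 1.46 without CSF1Ri+CD40 1. With Cd8b1 in place of Cd8a it was 0.64 (exact permutation p = 0.2). CSF1Ri differed by 0.19 (exact p = 0.4, smallest possible 0.1) and CD40 by -0.03 (exact p = 1, smallest possible 0.1 over 20 arrangements). Averaged over both antibody levels the inhibitor gave 0.54 (exact p = 0.4 over 100 arrangements), 0.19 without and 0.89 with the antibody. Averaged over both inhibitor levels the antibody gave 0.32 (exact p = 0.5 over 120 arrangements), -0.03 without and 0.67 with the inhibitor. Over these 5 comparisons the adjusted p ran from 0.5 to 1. The values depended on single libraries. Without CD40 3 the exact permutation test gave 0.66 for CD40 over control (p = 0.1). The averaged antibody effect was then 0.66 (exact permutation p = 0.0167, the smallest its arrangements allow, 1 of the 5 comparisons and not adjusted). Without CD40 1 the same values were -0.51 and 0.077, and without CSF1Ri+CD40 3 the averaged antibody effect was 0.020. The averaged inhibitor effect was 0.20 without CD40 3 and 0.24 without CSF1Ri+CD40 3.

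**Figure D4:**
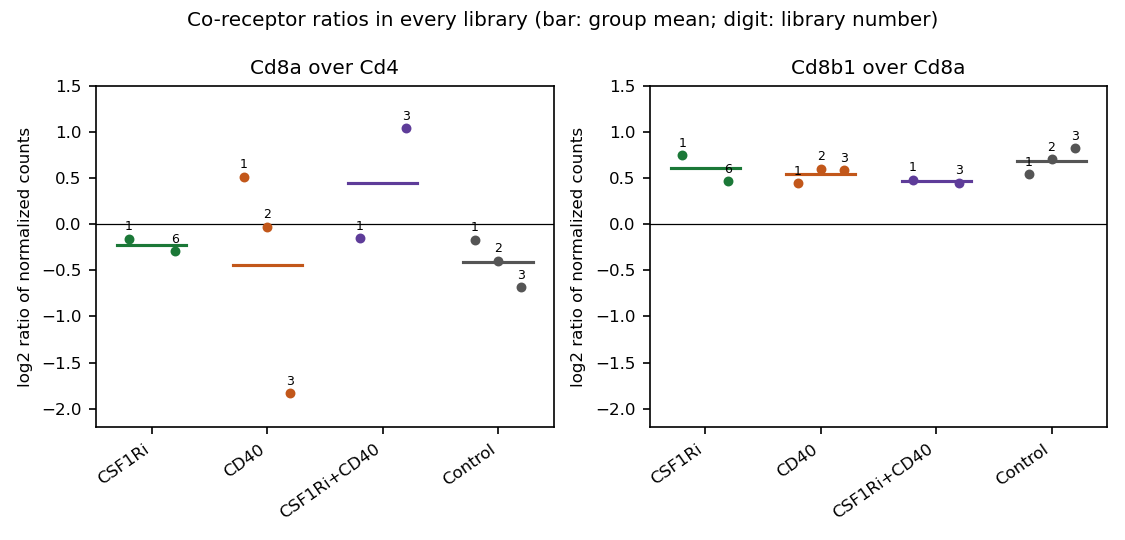
Log2 ratio of Cd8a to Cd4 (left) and of Cd8b1 to Cd8a (right) in each of the 10 libraries by group, with 1 point per library, its number above it and the group mean as a bar. The CD40 libraries span -1.83 to 0.51 in the left panel, and the right panel stays within 0.45 to 0.82.

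Gamma delta T cells mostly carry neither CD4 nor the CD8 alpha beta dimer. Their 5 marker genes (Trdc, Tcrg-C1, Sox13, Blk and Cd163l1) summed to 6586 and 12519 normalized counts in CSF1Ri libraries, 6507, 4025 and 11603 in CD40 libraries, and 5451 and 5609 in CSF1Ri+CD40 libraries, against 12823, 9996 and 14989 in control libraries. In the CD40 group the sum was highest in CD40 3, where Cd8a was lowest. Gamma chain constant genes outside the sum did not follow it there. Tcrg-C2 had 2545, 1089 and 1434 normalized counts in CD40 1, CD40 2 and CD40 3, and Tcrg-C4 had 427, 404 and 419. Red cell transcripts also differed between groups, as 4 globin genes summed to 1288 and 2695 in CSF1Ri libraries, 811, 1171 and 838 in CD40 libraries, and 13 and 474 in CSF1Ri+CD40 libraries, against 12899, 15721 and 2855 in control libraries. The part of either in the levels of the co-receptors was not tested.

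In CD40 3, the library with the lowest Cd8a and the lowest ratio, other transcripts stood at an end of their range as well. The sum of its mitochondrial transcripts was 123380, against 200216 to 370442 elsewhere. Ifng, the effector cytokine, was at 203 normalized counts there, against 563 to 2659 elsewhere. The regulatory T cell genes Foxp3, Il2ra and Ikzf2 summed to 16865 there, against 7068 to 14586 elsewhere. Foxp3 alone stood out little, at 2713 there against 2673 in CSF1Ri+CD40 1 and 2639 in Control 1. Il2ra was at 9446 there against 3797 to 8900 elsewhere, and Ikzf2 at 4706 against 1508 to 3198. The part of the makeup or RNA quality of that library in its Cd8a level was not tested.

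By the same likeness measure, the 5 genes closest to Cd8a other than Cd8b1 were Sap30bp (r = 0.92), Asrgl1 (0.92), Ifitm3 (0.92), Ly6c2 (0.92) and Litaf (0.91). Ly6c2, a surface protein of memory and effector CD8 T cells and of monocytes, had 2813 and 3259 normalized counts in CSF1Ri libraries, 3196, 3545 and 1615 in CD40 libraries, and 3529 and 3902 in CSF1Ri+CD40 libraries, against 1608, 2018 and 1557 in control libraries. For Cd4 the closest were Pias3 (0.91), AW146154 (0.90), Eif4a-ps4 (0.88), Map4k1 (0.88) and Gm37401 (0.86). Among the 10 genes Cd4 went most closely with Cd6 (r = 0.87, rho 0.81, 0.71 without the 2 farthest libraries). With Cd8a it gave 0.23 over all libraries and -0.60 in departures from the group means. Without CD40 2 and CD40 3 the r of Cd4 with Cd8a was 0.55.

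Cd5 (chr19:10717116-10739002) and Cd6 (chr19:10789341-10830058) are neighbours on the minus strand of chromosome 19, 50338 bases apart. Cd5, whose product damps receptor signaling, had 4083 and 4329 normalized counts in CSF1Ri libraries, 4212, 5279 and 4108 in CD40 libraries, and 6448 and 3821 in CSF1Ri+CD40 libraries, against 3327, 3678 and 3232 in control libraries. As for Cd4, all 7 treated libraries lay above the 3 controls. The log2 fold change over control was 0.30 ± 0.24 in CSF1Ri libraries (-0.22 to 0.83), 0.40 ± 0.21 in CD40 libraries (-0.07 to 0.87) and 0.54 ± 0.24 in CSF1Ri+CD40 libraries (0.02 to 1.07), and the adjusted limma p was 1, 0.793 and 0.914. The value for CSF1Ri+CD40 was 0.92 without CSF1Ri+CD40 3 and 0.17 without CSF1Ri+CD40 1.

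Cd6, whose product binds ALCAM, had 4508 and 5588 normalized counts in CSF1Ri libraries, 4510, 4245 and 3817 in CD40 libraries, and 5161 and 3174 in CSF1Ri+CD40 libraries, against 3333, 2882 and 3275 in control libraries. CSF1Ri and CD40 libraries lay above the controls, and CSF1Ri+CD40 3 lay among them. The log2 fold change over control was 0.67 ± 0.23 in CSF1Ri libraries (0.16 to 1.18), 0.41 ± 0.21 in CD40 libraries and 0.36 ± 0.23 in CSF1Ri+CD40 libraries, and the adjusted limma p was 1, 0.788 and 0.925. Cd5 and Cd6 gave r = 0.70 (rho 0.78), and Cd6 with Cd247 gave 0.84 (rho 0.84), over the 10 libraries.

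Cd2 (chr3:101275899-101287939, minus strand) had 17674 and 19210 normalized counts in CSF1Ri libraries, 19416, 27517 and 13122 in CD40 libraries, and 20504 and 17653 in CSF1Ri+CD40 libraries, against 12417, 18259 and 12381 in control libraries. As for Cd3d, Control 2 lay above the lowest library of each treated group, so the groups overlapped. The log2 fold change over control was 0.39 ± 0.29 in CSF1Ri libraries, 0.44 ± 0.26 in CD40 libraries and 0.43 ± 0.29 in CSF1Ri+CD40 libraries, and the adjusted limma p was 1, 0.811 and 0.925.

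All 10 genes had a positive fold change over control in each of the 3 treated groups, with a median log2 value of 0.48 for CSF1Ri, 0.37 for CD40 and 0.47 for CSF1Ri+CD40, beside 0.02, -0.01 and 0.00 over all 15716 genes tested. These comparisons share the 3 control libraries, the 10 genes are correlated, and they were chosen with earlier results of these data known, so the counts are not independent of each other or of the choice. Sums over markers of other cell types differed between groups as well. Fibroblast genes (5) summed to 338 and 436 normalized counts in CSF1Ri libraries, 4170, 772 and 34 in CD40 libraries, and 596 and 2578 in CSF1Ri+CD40 libraries, against 1552, 1402 and 2394 in control libraries. Keratinocyte genes (4) summed to 193 and 269 in CSF1Ri libraries, 759, 407 and 174 in CD40 libraries, and 297 and 1463 in CSF1Ri+CD40 libraries, against 1128, 553 and 1362 in control libraries. Both sums were thus below every control in CSF1Ri libraries and overlapped the controls in the libraries given antibody. Mast cell genes summed to 1603 and 674 in CSF1Ri libraries, 17372, 2117 and 3235 in CD40 libraries, and 9315 and 1520 in CSF1Ri+CD40 libraries, against 436, 487 and 1531 in control libraries. The T cell sum, which holds 3 of the 10 genes, was 90983 and 97542 in CSF1Ri libraries, 92800, 111956 and 69519 in CD40 libraries, and 95544 and 93921 in CSF1Ri+CD40 libraries, against 66524, 82053 and 77398 in control libraries. It lay above every control in all treated libraries but CD40 3, and the part of the makeup of the libraries in the fold changes of the 10 genes was not tested.

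In limma none of the 10 passed the adjusted threshold in any of 5 comparisons, where it called 0.00636% of all genes for CSF1Ri, 0.00636% for CD40 and 0% for CSF1Ri+CD40 and for both averaged effects. At an unadjusted p under 0.05, all in the positive direction, 5 of the 10 passed for CSF1Ri (Cd247, Cd4, Cd8a, Cd8b1 and Cd6), where 1.99% of all genes did so, and 4 for CSF1Ri+CD40 (Cd3e, Cd8a, Cd8b1 and Cd5), where 2.34% did. For CD40 it was 0 of 10, where 2.63% of all genes passed. Averaged over both antibody levels the inhibitor had 4 (Cd3e, Cd4, Cd8a and Cd8b1; 2.49% of all genes), and averaged over both inhibitor levels the antibody had 0 (2.03%).

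**Figure D5:**
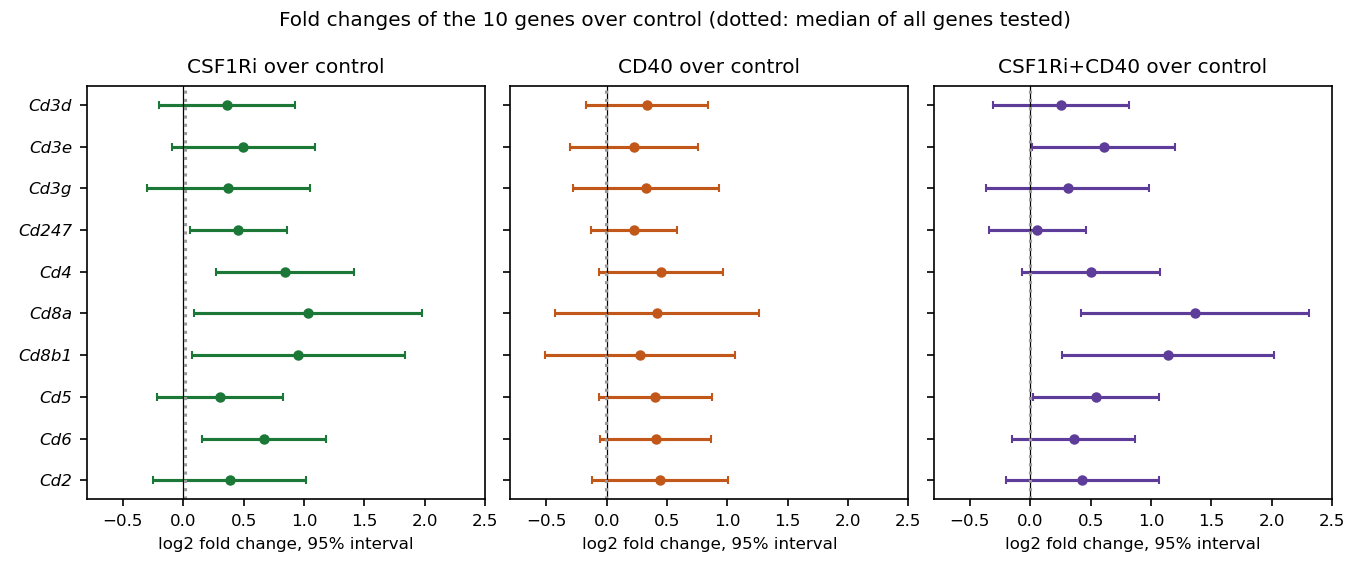
Log2 fold change over control of the 10 genes in CSF1Ri, CD40 and CSF1Ri+CD40 libraries (horizontal axes) with 95% intervals from limma, and the median of all 15716 genes as a dotted line. All points lie to the right of 0, and the intervals of Cd8a and Cd8b1 exclude 0 for CSF1Ri and CSF1Ri+CD40 and include it for CD40; no gene passed the adjusted threshold.

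Counted by library, 6 of the 10 genes (Cd247, Cd4, Cd8a, Cd8b1, Cd5 and Cd6) were higher in both CSF1Ri libraries than in every control library, which held for 11.6% of all genes tested. For CD40 it was 4 (Cd247, Cd4, Cd5 and Cd6), against 4.19% of all genes, and for CSF1Ri+CD40 it was 4 (Cd4, Cd8a, Cd8b1 and Cd5), against 10.6%. All 4 libraries with the inhibitor lay above the controls for Cd4, Cd8a, Cd8b1 and Cd5, against 4.12% of all genes, and all 7 treated libraries for Cd4 and Cd5, against 0.923%. No gene of the 10 lay below the controls in all libraries of a treated group. Of all 15716 genes tested, 1616 did so for CSF1Ri, 772 for CD40 and 1509 for CSF1Ri+CD40. None lay above at both antibody levels, that is, in CSF1Ri over control and in CSF1Ri+CD40 over CD40, where 1.18% of all genes did.

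Levels relative to Cd3e asked whether the co-receptors differed beyond the amount of a CD3 chain. Log2 of Cd8a over Cd3e was -2.59 and -2.64 in CSF1Ri libraries, -2.13, -2.64 and -4.10 in CD40 libraries, and -2.61 and -2.18 in CSF1Ri+CD40 libraries, against -2.85, -2.65 and -3.95 in control libraries. Log2 of Cd4 over Cd3e was -2.44 and -2.35 in CSF1Ri libraries, -2.64, -2.62 and -2.27 in CD40 libraries, and -2.46 and -3.22 in CSF1Ri+CD40 libraries, against -2.68, -2.25 and -3.27 in control libraries. For Cd8a the CSF1Ri libraries lay above the controls, with CSF1Ri 6 next to Control 2, and for Cd4 they lay among them.

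Scaling to Cd3e moved the median of all genes to -0.48 for CSF1Ri, -0.24 for CD40 and -0.61 for CSF1Ri+CD40 over control. Averaged over both antibody levels, the inhibitor gave 0.55 ± 0.37 for Cd8a relative to Cd3e (limma adjusted p = 0.589), beside a median of -0.42 over all genes. In limma none of 15715 genes passed relative to Cd3e, 0% for the inhibitor (1396 at an unadjusted p under 0.05) and 0% for the antibody (659). Since Cd3e went apart from the other CD3 chains, Cd3g was used in its place, a choice made after its values were seen. Relative to Cd3g the averaged inhibitor effect was 0.81 ± 0.25 for Cd8a and 0.73 ± 0.21 for Cd8b1 (limma adjusted p = 1 for both).

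Of the genes around the 10 in the receptor pathway, none passed the adjusted threshold in limma in any of the 5 comparisons. For counts above 0, the share over all genes tested was 51.1% for CSF1Ri, 49.0% for CD40 and 49.3% for CSF1Ri+CD40. The proximal signaling list (34 genes, including Lck, Zap70 and Lat) had 18 genes above 0 for CSF1Ri, 17 for CD40 and 17 for CSF1Ri+CD40 over control, with medians of 0.05, -0.02 and 0.01. Ubash3a, a negative regulator of receptor signaling, had a log2 fold change of 1.06 ± 0.39 for CSF1Ri and 0.99 ± 0.39 for CSF1Ri+CD40, and Sla2, an adaptor that damps the receptor, had 0.78 ± 0.25 for CD40. Nck2, an adaptor that links the receptor to actin, had -1.04 ± 0.36 for CD40. The 7 receptor constant genes had medians of 0.19, -0.17 and -0.05 over control. Tcrg-C4, a gamma chain constant gene, had 427, 404 and 419 normalized counts in CD40 libraries, against 1148, 1070 and 1235 in control libraries, a log2 fold change of -1.46 ± 0.25 (limma adjusted p = 0.532), and Trdc, the delta constant gene, had -0.82 ± 0.32 for CD40 and -1.09 ± 0.36 for CSF1Ri+CD40. Tcrg-C1, another gamma chain constant gene, had -1.02 ± 0.39 for CSF1Ri+CD40. Tcrg-C2, a further gamma constant gene that is not in the marker sum above, had 2496 and 3879 normalized counts in CSF1Ri libraries, 2545, 1089 and 1434 in CD40 libraries, and 2345 and 2098 in CSF1Ri+CD40 libraries, against 1394, 1616 and 2509 in control libraries. Its sign was the opposite of that of Tcrg-C4 for CSF1Ri, at 0.80 ± 0.37 against -0.68 ± 0.28, the groups overlapped, and averaged over both antibody levels the inhibitor gave 0.64 ± 0.26 for Tcrg-C2.

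Of 12 other co-receptors and costimulatory partners, 11 were above 0 for CSF1Ri, 7 for CD40 and 9 for CSF1Ri+CD40, with medians of 0.50, 0.14 and 0.22. Crtam, an adhesion receptor of activated cytotoxic cells, had 700 and 827 normalized counts in CSF1Ri libraries, 584, 320 and 347 in CD40 libraries, and 890 and 738 in CSF1Ri+CD40 libraries, against 161, 298 and 321 in control libraries. Its log2 fold change over control was 1.61 ± 0.39 for CSF1Ri and 1.70 ± 0.39 for CSF1Ri+CD40, with adjusted p of 1 and 0.594 in limma. Cd7, an immunoglobulin family receptor, had 0.85 ± 0.27 for CSF1Ri, 0.98 ± 0.24 for CD40 and 0.86 ± 0.27 for CSF1Ri+CD40.

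The 17 lineage factors of CD4 and CD8 cells lay mostly below 0, without any passing the adjusted threshold. There were 4 above 0 for CSF1Ri, 2 for CD40 and 6 for CSF1Ri+CD40, with medians of -0.24, -0.39 and -0.13. Over all genes tested, 51.1%, 49.0% and 49.3% were above 0. Eomes, a T-box factor of CD8 and NK cells, had 208 and 425 normalized counts in CSF1Ri+CD40 libraries, against 86, 26 and 76 in control libraries, a log2 fold change of 2.40 ± 0.71 (limma adjusted p = 0.743). Ets1, an ETS family factor, and Cbfb, the partner of the Runx factors, had -0.61 ± 0.23 and -0.63 ± 0.26 for CD40. In a list of ligands of the 10 genes that also counts Cd244 (10 tested), 8, 8 and 9 were above 0 for CSF1Ri, CD40 and CSF1Ri+CD40. The medians were 0.10, 0.33 and 0.33. Cd244, itself a receptor, had 1.87 ± 1.07 for CSF1Ri and 2.10 ± 0.96 for CD40. Alcam, the ligand of CD6, had 98 and 65 normalized counts in CSF1Ri libraries and 325 and 399 in CSF1Ri+CD40 libraries. Its CD40 libraries (220, 202 and 298) overlapped the control libraries (196, 154 and 351). Its log2 fold change over control was -1.45 ± 0.46 for CSF1Ri and 0.71 ± 0.46 for CSF1Ri+CD40. Averaged over both inhibitor levels the antibody gave 1.13 ± 0.33 for Alcam. The same averaged effect was 0.32 ± 0.15 for H2-K1, an MHC class I heavy chain. The 8 tail partners of CD2, CD5 and CD6 had medians of -0.05, -0.15 and -0.10, with Cd2ap at -0.76 ± 0.64 for CSF1Ri and -1.45 ± 0.64 for CSF1Ri+CD40. Sh3kbp1, an adaptor related to Cd2ap, had -0.34 ± 0.20 for the antibody averaged over both inhibitor levels.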

How the data were processed

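RNA of cells from pooled melanomas was sequenced in 10 libraries. Per the labels' protocols, tumors were digested, red cells lysed and dead cells removed, and no step that selects T cells is named; libraries were made from 50 ng of RNA without strand information and read as 75-base pairs, 6 to a lane. STAR aligned them to GRCm38 (mm10), HTSeq counted and DESeq2 normalized them, per the submitters' processing notes; versions are not given in the sources used here. The deposited values are scores: counts per gene that the authors divided by size factors and rounded to whole numbers. Size factors computed again lay within 0.203% of each other, so no further scaling was made.

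The filter asked for 10 or more normalized counts in 2 or more libraries and left 15716 of 48825 genes. On log2(value + 1), limma 3.58.1 under R 4.3.3 fitted the group means with a variance trend, two-sided, with Benjamini-Hochberg adjustment over all genes tested and a threshold of 0.05. Fold changes on this scale understate the change of low genes. The log2 ratio of Cd8a to Cd4 was compared by exact permutation tests over libraries, stratified by the other treatment for averaged effects. The limma fit was tested on simulated data, with planted changes larger than those of the 10 genes. The permutation test was checked on a made-up example only. Python 3.11.15 (scipy 1.17.1, pandas 2.3.3, numpy 2.4.6; figures by matplotlib 3.10.9) was used elsewhere. Alternatives were the pseudocount, the filter, the scaling, the variance trend, terms for Malat1 and Y-linked transcripts, a replicate block, the groups fitted, and each library left out.

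The genes and lists were chosen with earlier results of these data known. Named genes are the 10 genes, the 5 most correlated with Cd3e, Cd4 and Cd8a, and from each list the 2 to 4 with the lowest p in any of the 5 comparisons, with Foxp3 and Ifng; Pou2f1 overlaps Cd247, and Il2ra and Ikzf2 are fixed markers. Ly6c2, Trac, Ucp2 and the genes like Cd3g were described after their values were seen. A further allele of the strain and 1 gene of a likeness list are not reported here.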

Additional observations from a re-analysis of the deposited data

Results flagged for a closer look

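Cd247, the zeta chain gene, had antibody differences of opposite sign without and with the inhibitor, which is why it is listed. All 3 CD40 libraries (6492, 5966 and 5469 normalized counts) lay above all 3 control libraries (5169, 5265 and 4859), while both CSF1Ri+CD40 libraries (5647 and 4989) lay below both CSF1Ri libraries (6404 and 7629). The difference between the log2 fold changes was -0.62 ± 0.26 (SE), with an adjusted limma p of 0.991 over 15716 genes.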

How the results depend on the processing

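None of the 10 genes passed the adjusted threshold in 1290 combinations of gene, comparison and alternative, where the smallest adjusted limma p was 0.0929, so their calls did not depend on the settings run. Counts over all genes were small and did. For CSF1Ri over control the count of 1 was 0 with a pseudocount of 10, with no filter, with a mean of at least 50, with a term for Malat1 or for Y-linked transcripts, without CD40 2 and CD40 3, and with only the groups compared, and 6 without the variance trend; leaving out each library gave 0 to 0. For CD40 over control the count of 1 was 0 with no filter or only the groups compared, 2 without the variance trend and 2 without CD40 2 and CD40 3, with 0 to 3 over single libraries left out. For CSF1Ri+CD40 over control the count of 0 was 1 with a pseudocount of 10, with a mean of at least 50, with upper-quartile scaling and without CD40 2 and CD40 3, and 13 without the trend, with 0 to 36 over single libraries left out, 36 being without CSF1Ri+CD40 1. Without the trend the averaged inhibitor effect had 12 genes and the averaged antibody effect 10, against 0 each, and single libraries left out gave 0 to 1 and 0 to 3. The cause was not tested.

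With the replicate block, the count was 0 for CD40 over control and for CSF1Ri+CD40 over control, and no call of the 10 genes changed. Same-numbered libraries had correlations of -0.27 to 0.18 between their departures from the group means, against -0.36 to 0.29 for libraries of other numbers. In a group of 2 libraries the departures mirror each other, so these values cannot decide on pairing. The numbers were not taken to pair libraries.

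The log2 ratio of Cd8a to Cd4 for CD40 over control, -0.03, was 1.05 in the libraries without Y-linked transcripts (1 CD40 and 2 control libraries), 0.93 without CD40 2 and CD40 3, and -0.51 to 0.66 over single libraries left out. The averaged antibody effect, 0.32, was 0.80 without CD40 2 and CD40 3 (exact permutation p = 0.0417, the smallest its arrangements allow, with CD40 1 the lone CD40 library) and 0.020 to 0.66 over single libraries left out. Leaving CD40 2 and CD40 3 out together was chosen after seeing the data.

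Signs near 0 turned over single libraries left out, without passing the threshold. The range was -0.030 to 0.15 for Cd247 in CSF1Ri+CD40 over control, -0.022 to 0.53 for Cd3e and -0.082 to 0.80 for Cd8b1 in CD40 over control. For the averaged antibody effect it was -0.15 to 0.26 for Cd4, which was -0.019 without CD40 2 and CD40 3, and -0.13 to 0.22 for Cd6. Relative to Cd3e the averaged inhibitor effect ran from -0.18 to 0.20 for Cd4 (-0.074 with a Malat1 term) and from -0.29 to 0.037 for Cd6. Relative to Cd3g it was 0.042 for Cd5, 0.13 for Cd6 and 0.0088 for Cd2, each negative relative to Cd3e. Relative to Cd3e the averaged antibody effect ran from -0.26 to 0.15 for Cd3d (0.071 with a Malat1 term) and from -0.21 to 0.17 for Cd3g (0.11 with a Malat1 term, 0.0069 with a term for Y-linked transcripts, 0.070 without CD40 2 and CD40 3). It ran from -0.30 to 0.079 for Cd4, -0.0022 to 0.49 for Cd8a, -0.12 to 0.34 for Cd8b1, -0.025 to 0.33 for Cd5, -0.28 to 0.044 for Cd6 and -0.12 to 0.29 for Cd2.

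Groups of 2 or 3 libraries set the limits here. The median SE of a log2 fold change of the 10 genes over control was 0.24 to 0.27, and that of Cd8a was larger. Differences of a few times their own SE did not pass, such as 1.36 ± 0.43 for Cd8a in CSF1Ri+CD40 over control. Leaving out a library can leave 1 in a group, and the limma fit then gives that lone library the spread seen in the rest.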
